A study of Mus musculus with 4 samples.

Results

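A set of 10 inflammatory sensing genes of monocytes was read in blood mononuclear cells of mice: the receptors Tlr2, Tlr4, Cd14 and Clec4e, the inflammasome sensor Nlrp3, the inhibitor Nfkbia, the cytokine genes Il1b, Il1rn and Tnf, and the adhesion gene Icam1. They were chosen by symbol, by no threshold on a measured value, and all 10 were found among the 32285 genes of the files. The mice were of 2 inbred strains, BL/6 and SM/J in the spelling of the labels, and were 12 or 20 months old. No treatment or engineered allele is given for any group, and mononuclear cells of all groups were taken from blood over a density gradient, with platelets and red cells reduced afterwards. Each strain and age gave 1 matrix of UMI counts, called a library here, and both ages of a strain were mixed in 1 multiplexed 10x run. Strain and run therefore cannot be told apart. In all, 3 tag oligos were listed for each library, and the cells of a tag are called an aliquot; it is not stated if each tag stands for 1 animal, so aliquots show spread and are not replicates.

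Monocytes detect microbial and damage signals with surface receptors. TLR2 recognises bacterial lipopeptides, TLR4 recognises lipopolysaccharide that CD14 hands over, and Clec4e encodes Mincle, a C-type lectin that binds mycobacterial glycolipid and a protein released by dying cells. These receptors activate NF-kB, which is held in check by IkBα, the product of Nfkbia and itself a target of NF-kB. NF-kB raises the transcripts of Nlrp3, Il1b, Tnf and Icam1; the NLRP3 inflammasome then allows the IL-1β precursor to be cut, and Il1rn encodes the antagonist that blocks the IL-1 receptor. Classical monocytes are the inflammatory, Ly6C-high subset of mouse blood, and nonclassical monocytes patrol the vessel wall.

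The files held 12299 cells, of which 11596 were kept, and between 14250603 and 30627357 UMIs per library. In the order BL/6 at 12 and 20 months, SM/J at 12 and 20 months, there were 262, 482, 115 and 98 classical monocyte-like cells. The nonclassical monocyte-like cells numbered 333, 687, 406 and 172, and the lymphocytes (B, T and NK cell-like) 2544, 1548, 1703 and 1891. Cells with at least 5 Prg4 UMIs, called cavity-type macrophages, numbered 29, 38, 35 and 397. The clusters were named by the same marker lists, so the sums given here describe the classes and are no separate check of the names. Every classical marker was detected in every library. The 8 summed to between 6946 and 12327 CPM (UMI counts scaled to a common class total) in classical cells, against 1025 to 1745 CPM in nonclassical cells. The 7 nonclassical markers summed to between 3881 and 4842 CPM in nonclassical cells and between 559 and 1112 CPM in classical cells. The 12 cavity macrophage markers include Gata6, Timd4 and Prg4, the gene that set the class. They summed to between 15400 and 18320 CPM in the Prg4 class and to at most 391 CPM in either monocyte class. The Prg4 class also carried the classical markers, at 5491 to 8145 CPM. The strains lay mostly in different clusters. Cluster 3 held all classical cells of both BL/6 libraries and cluster 25 held 97.4% and 95.9% of those of SM/J, while nonclassical cells lay in cluster 4 in BL/6 (99.4% and 99.6%) and in cluster 24 in SM/J (89.9% and 91.3%). A further 9.61% and 7.56% of the SM/J nonclassical cells were in cluster 23, where 52.7% of 55 cells had a Cd79a or Ms4a1 UMI, which are B cell transcripts. Libraries of the same run shared 0 barcodes and libraries of different runs shared 1 to 3, which concerned 16 kept cells.

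Most of the 10 genes were far higher in myeloid cells than in lymphocytes. Il1b stood at 93.9 to 375 CPM in the 2 monocyte classes and at 0.928 to 1.40 CPM in lymphocytes. A UMI of Il1b was seen in 31.6% to 74.8% of monocyte-like cells and in 0.352% to 0.646% of lymphocytes, whose median depth was 3801 to 8392 UMIs against 5458 to 8508 UMIs in the monocyte classes. Clec4e, Nlrp3 and Il1rn were likewise at or under 1.04 CPM in lymphocytes of every library, and Cd14 and Tlr2 at or under 6.25 CPM. Tlr4 was at 7.72 to 9.63 CPM in B cell-like cells, against 15.1 to 35.2 CPM in the monocyte classes. Lymphocytes also carried Nfkbia, at 112 to 230 CPM, Icam1, at 15.1 to 30.5 CPM, and Tnf, at 5.49 to 8.58 CPM against 3.77 to 14.1 CPM in the monocyte classes. A Tnf level in monocyte-like cells was thus at or near the level in lymphocytes, a class that itself transcribes Tnf, and its ratios were not read as changes.

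**Figure D1:**
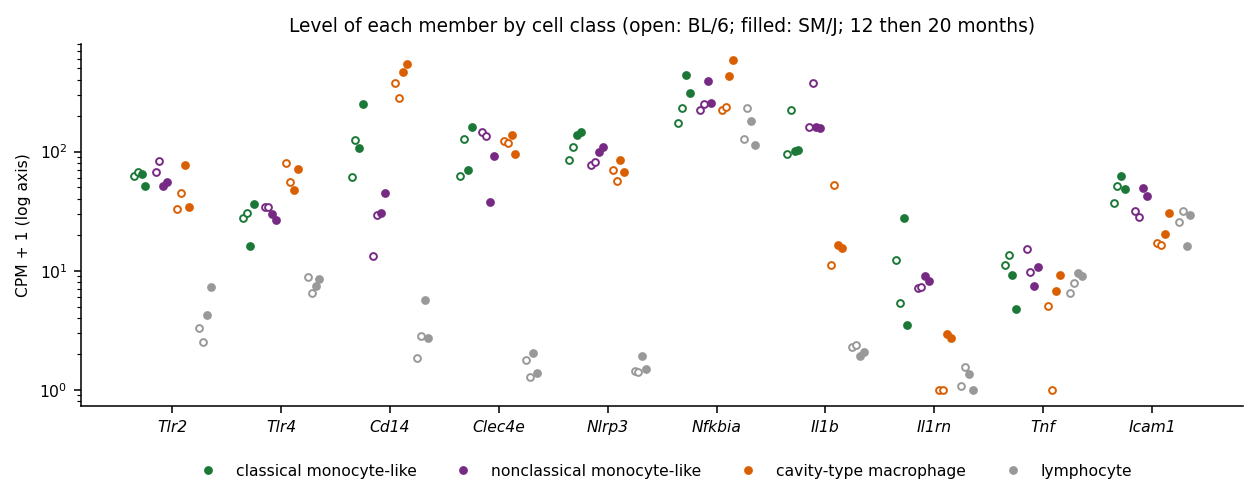
Level of each of the 10 genes (CPM + 1, logarithmic axis) in classical and nonclassical monocyte-like cells, cavity-type macrophages and lymphocytes, with 1 point per library (open for BL/6, filled for SM/J, 12 before 20 months). Il1b is at 93.9 CPM or more in every monocyte point and at or under 1.40 CPM in lymphocytes, while Nfkbia is above 100 CPM in all 16 points.

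Within the monocytes, Cd14 was the only receptor of the set that differed between the subsets in the same direction in all 4 libraries. Cd14 was higher in classical than in nonclassical cells of all 4 libraries, by log2 ratios of 2.20 (95% interval 1.64 to 2.79), 2.10 (1.83 to 2.37), 1.82 (1.39 to 2.24) and 2.48 (2.05 to 2.94) for BL/6 at 12 and 20 months and SM/J at 12 and 20 months. All intervals here are exact and cover counting error only, and ratios are of CPM + 1. Il1b went the other way in each library, with log2 ratios of -0.77, -0.76, -0.68 and -0.62. Clec4e had no single order. It was lower in classical than in nonclassical cells of BL/6 at 12 months (-1.23, -1.52 to -0.95), was not distinguishable between the subsets of BL/6 at 20 months (-0.06, -0.23 to 0.10), and was higher in classical cells of SM/J at both ages (0.87, 0.40 to 1.33, and 0.81, 0.44 to 1.18). Tlr2 and Tlr4 differed between subsets by less than 1.5-fold in every library except SM/J at 12 months, where Tlr4 rested on 13 UMIs in the classical cells.

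Clec4e was the receptor whose age difference was seen in both strains and whose promoter sequence was available. In classical cells its level was 58.2, 62.4 and 62.7 CPM in the aliquots of BL/6 at 12 months and 108, 137 and 142 CPM at 20 months. In SM/J the aliquots stood at 42.8, 77.8 and 89.0 CPM at 12 months and 156, 159 and 174 CPM at 20 months. Every 20-month aliquot lay above every 12-month aliquot of its strain. The log2 ratio of 20 over 12 months was 1.05 (0.80 to 1.32) in BL/6, a 2.08-fold difference, and 1.22 (0.77 to 1.68) in SM/J, a 2.32-fold difference. A coarser clustering (resolution 0.5) left 9 SM/J classical cells at 12 months and gave -1.22 there. Thinning each cell to 1000 UMIs gave 0.75 in SM/J, just under the counting interval. In nonclassical cells the level in BL/6 was 130, 143 and 157 CPM at 12 months and 127, 133 and 139 CPM at 20 months (log2 ratio -0.12, -0.31 to 0.08). In SM/J it was 28.0, 40.2 and 43.3 CPM at 12 months and 74.0, 81.6 and 128 CPM at 20 months (log2 ratio 1.28, 0.90 to 1.66). Nonclassical Clec4e of SM/J was below that of BL/6 at 12 months (log2 ratio -1.93, -2.24 to -1.63, with no aliquot overlapping) and, by less than 1.5-fold, at 20 months (-0.54, -0.84 to -0.25). With cluster 23 left out, the SM/J age ratio was 1.21 and the strain ratio at 12 months -1.80.

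The promoter windows of Clec4e and of Nfkbia, whose aliquots moved in opposite directions in the strains (below), show the sequence next to which these transcripts begin. They run from 250 bases before to 50 bases after the RefSeq start site on GRCm38.p6, the assembly that mm10 stands for, in the direction of the gene. This is the reference sequence, and the sequence of SM/J was not read. Clec4e lies on chromosome 6 (123281789 to 123289871) and its window is chr6:123289822-123290121, minus strand; Nfkbia lies on chromosome 12 (55489409 to 55492647) and its window is chr12:55492598-55492897, minus strand. Capitals mark matches to the motifs searched on both strands: the NF-kB (kappaB) consensus, TATAAA, the AP-1 motif TGANTCA and the PU.1 motif AGAGGAAG.
Clec4e: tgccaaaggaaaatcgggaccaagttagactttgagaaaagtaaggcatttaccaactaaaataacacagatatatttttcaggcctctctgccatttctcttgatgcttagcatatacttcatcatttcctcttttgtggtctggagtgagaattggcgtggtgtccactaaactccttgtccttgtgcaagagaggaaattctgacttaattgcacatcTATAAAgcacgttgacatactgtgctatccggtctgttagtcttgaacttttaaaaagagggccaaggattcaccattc
Nfkbia: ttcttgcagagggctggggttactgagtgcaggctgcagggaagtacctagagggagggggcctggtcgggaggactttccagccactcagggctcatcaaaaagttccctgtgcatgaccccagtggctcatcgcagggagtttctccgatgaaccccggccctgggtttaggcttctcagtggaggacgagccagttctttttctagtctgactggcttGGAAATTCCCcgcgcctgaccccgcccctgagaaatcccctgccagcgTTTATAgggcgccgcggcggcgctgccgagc

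In the Clec4e window the only match was TATAAA, starting 29 bases before the start site. The Nfkbia window held a kappaB match, GGAAATTCCC, that also begins 29 bases before the start site, and a TATAAA match after the start site; both motifs read on the strand opposite to the gene. Of all 32851 windows in the table, 8.46% hold the kappaB consensus, 13.6% TATAAA, 7.81% TGANTCA and 4.55% AGAGGAAG. Windows were found for 8 of the 10 genes (Il1rn and Nlrp3 have more than 1); the kappaB consensus was in those of Nfkbia, Nlrp3 and Tlr2, TATAAA in those of Clec4e, Icam1, Il1b, Il1rn, Nfkbia and Tnf, TGANTCA in that of Il1rn, and AGAGGAAG in none. A gene is listed if any of its windows matches, while the shares are per window. TATAAA starts 31 bases before the start site in Il1b and 29 before it in Tnf and Clec4e. In Icam1, Il1rn and Nfkbia it lies after the start site. The 3 kappaB matches of Tlr2 include 2 that overlap. These are matches of letters and no measure of binding.

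Cd14, the lipopolysaccharide co-receptor, was also higher at 20 months in classical cells of both strains. The aliquots gave 59.2, 59.9 and 62.4 CPM against 120, 123 and 133 CPM in BL/6, and 79.5, 110 and 142 CPM against 218, 262 and 274 CPM in SM/J. No aliquots overlapped between ages in either strain, and the log2 ratios were 1.04 (0.78 to 1.30) and 1.21 (0.85 to 1.58). With classes set by marker UMIs the SM/J ratio was 1.82. The share of classical cells with a Cd14 UMI went from 32.8% to 53.5% in BL/6 and from 44.3% to 77.6% in SM/J, or from 5.43% to 11.6% and from 10.4% to 27.6% after each cell was thinned to 1000 UMIs. Nonclassical cells had little Cd14: 12.4 and 28.4 CPM in BL/6 (log2 ratio 1.14, 0.58 to 1.73) and 29.7 and 43.7 CPM in SM/J (0.54, 0.04 to 1.03; 1.41 at resolution 0.5 and 1.54 after thinning). Cavity-type macrophages carry more Cd14 than either class, and with every cell that had a Prg4 UMI left out the classical ratios were 1.05 and 1.23. Within the classical class the marker Ly6c2 also differed with age, at 629 and 374 CPM in BL/6 and 1339 and 511 CPM in SM/J; its part in the Cd14 and Clec4e differences was not tested.

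No age difference of Tlr2 or Tlr4 was called. Tlr2 stood at 61.6 and 66.2 CPM in classical cells of BL/6 and at 66.7 and 81.9 CPM in nonclassical cells, log2 ratios of 0.10 (-0.18 to 0.39) and 0.29 (0.02 to 0.57). In SM/J it stood at 64.0 and 50.2 CPM in classical cells, and its nonclassical aliquots lay at 47.7 to 53.3 CPM and 51.3 to 57.1 CPM; both intervals held 0. Tlr4 of BL/6 was at 26.5 and 29.4 CPM in classical and 33.6 and 33.5 CPM in nonclassical cells. In classical cells of SM/J, Tlr4 was at 15.1 and 35.2 CPM (log2 ratio 1.17, 0.21 to 2.17), counted 13 times at 12 months and 28 times at 20 months, too few to pass the filter of 100 UMIs per comparison and a mean of 20 CPM; the aliquots, 9.18 to 22.3 CPM and 20.0 to 40.5 CPM, overlapped, and the ratio was 0.21 after thinning. At resolution 0.5, with 9 cells at 12 months, it was 2.50 for Tlr4 and -2.15 for Tlr2.

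**Figure D2:**
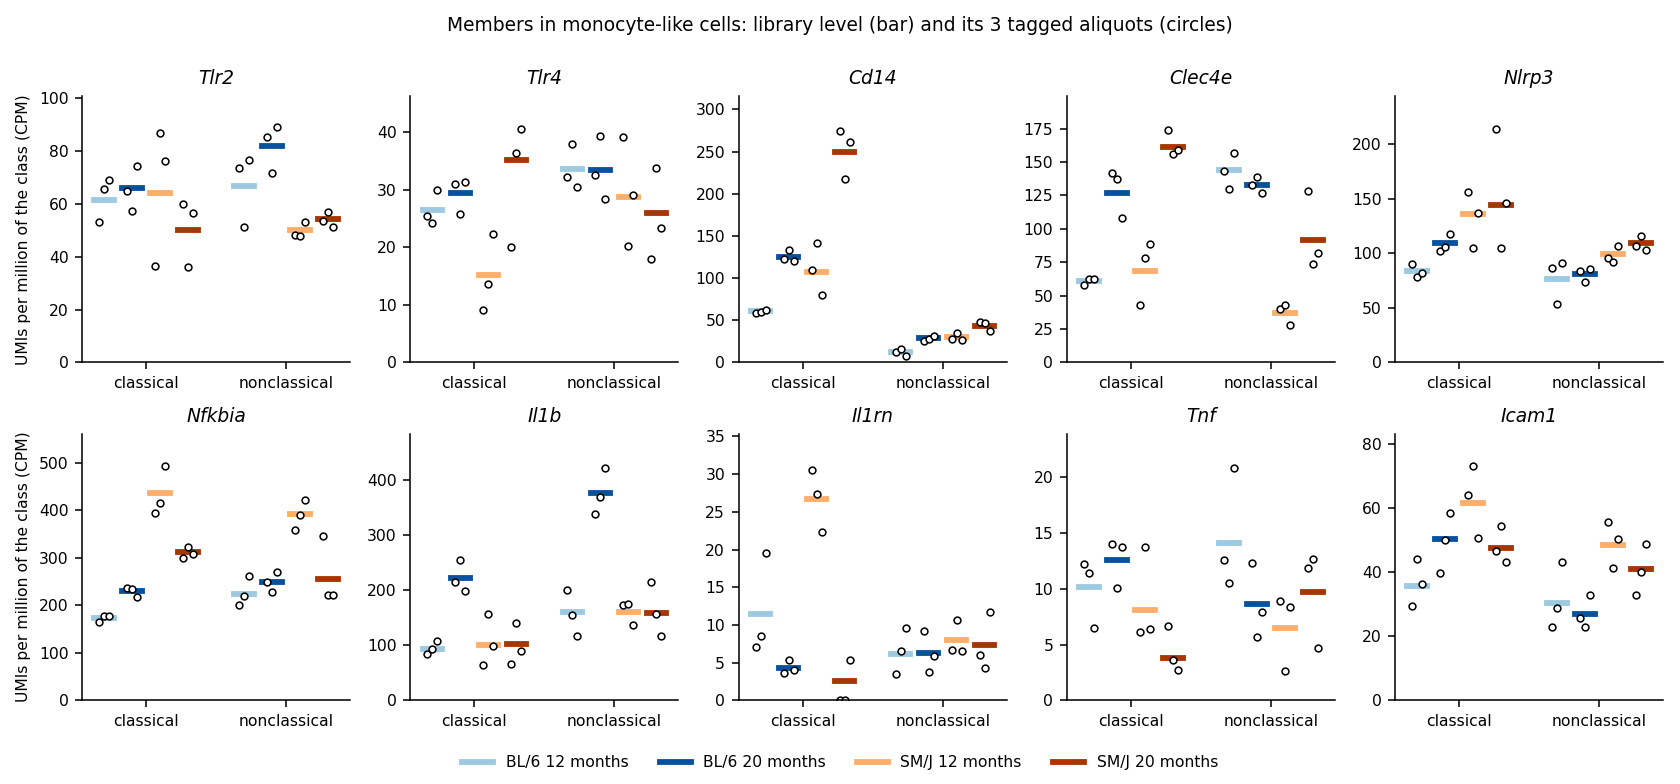
Level in CPM (linear axes from 0, one scale per gene) of the 10 genes in classical and nonclassical monocyte-like cells; bars are the libraries and circles their 3 tagged aliquots. In classical cells the 20-month circles of Cd14 and Clec4e lie above the 12-month circles in both strains, and for Il1b they do so in BL/6 but overlap in SM/J.

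Il1b, the IL-1β precursor gene, was higher at 20 months in both monocyte classes of BL/6. In SM/J its ratios were near 0 in both classes, with a wide spread of aliquots and a dependence on how classical cells were chosen. Classical cells of BL/6 had 84.7, 92.7 and 107 CPM at 12 months and 198, 214 and 254 CPM at 20 months. Nonclassical cells had 117, 154 and 200 CPM and then 338, 369 and 421 CPM. The groups did not overlap in either class, and the log2 ratios were 1.23 (1.02 to 1.44) and 1.21 (1.05 to 1.38), or 2.34-fold and 2.32-fold. In SM/J the aliquots of classical cells lay between 64.3 and 156 CPM at 12 months and between 66.7 and 141 CPM at 20 months (log2 ratio 0.04, -0.41 to 0.49). Those of nonclassical cells lay between 136 and 174 CPM and between 117 and 215 CPM (log2 ratio -0.02, -0.26 to 0.22). These intervals cover counting error only: pairs of SM/J aliquots of classical cells gave ratios from -1.21 to 1.13, which overlap the range of 0.89 to 1.57 in BL/6. The SM/J classical ratio was 0.65 with classes set by marker UMIs, 0.63 at resolution 0.5 (9 cells at 12 months) and 0.90 with cells thinned to 1000 UMIs, all past 1.5-fold. Nonclassical cells of SM/J gave -0.65 after thinning. The difference between the strains was not tested. The median nonclassical cell of BL/6 had 0 UMIs of Il1b at 12 months and 2 at 20 months. The share of nonclassical cells with an Il1b UMI was 46.2% and 74.8%, or 13.3% and 29.1% after thinning.

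Neutrophils are rich in Il1b, and a neutrophil-like cluster of 11 cells in BL/6 at 20 months had 8884 CPM of it. The 9 neutrophil markers summed to 216 and 305 CPM in the classical cells of BL/6 at 12 and 20 months and to 137 and 120 CPM in the nonclassical cells, where Ly6g and Retnlg were at 0 in both libraries. In classical cells of BL/6, S100a9, Retnlg, Cxcr2, Mmp9 and Ly6g were at 0 at 12 months, and at 20 months 8 of the 9 markers had a UMI: S100a9 was at 3.48 CPM, Mmp9 at 1.52 CPM, Cxcr2 at 0.871 CPM and Retnlg at 0.435 CPM, with Ly6g at 0. S100a8 was at 9.39 and 37.9 CPM in BL/6 and 4.65 and 41.4 CPM in SM/J. With every cell that had a Retnlg, Cxcr2, Ly6g or Mmp9 UMI left out, the Il1b ratios of BL/6 were 1.19 and 1.22. Transcripts of other blood cells also differed between ages: the 7 erythroid markers summed in nonclassical cells to 51.7 and 1156 CPM in BL/6 and to 2261 and 80.8 CPM in SM/J, and in classical cells to 52.6 and 58.8 CPM and to 137 and 193 CPM. The 7 platelet markers summed in classical cells to 210 and 469 CPM in BL/6 and to 98.8 and 117 CPM in SM/J, and in nonclassical cells to between 34.5 and 71.5 CPM. The 8 B cell markers summed in nonclassical cells to 190 and 158 CPM in BL/6 and to 1534 and 694 CPM in SM/J. With cells that had B or T cell transcripts left out, the nonclassical SM/J age ratios were -0.61 for Nfkbia and 1.33 for Clec4e, and the 12-month strain ratios 0.90 and -1.91. The part of the erythroid and platelet transcripts in the age ratios was not tested.

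The other cytokine genes were sparse. Il1rn, the receptor antagonist gene, was counted 28 times at 12 months and 20 times at 20 months in classical cells of BL/6 (11.4 and 4.35 CPM, log2 ratio -1.21, -1.97 to -0.45). In SM/J it was counted 23 times and 2 times (26.7 and 2.51 CPM, log2 ratio -2.98, -4.51 to -1.29). Both 20-month UMIs came from 1 aliquot. Without it no 20-month UMI is left, and the ratio of -4.79 is then set by the 1 CPM added to each level. The ratio was -5.48 after thinning and 0.00 at resolution 0.5, where 9 cells at 12 months are too few to measure Il1rn. The 12-month aliquots lay above the 20-month aliquots in both strains, but neither comparison passed the filter, so these are levels and not calls. In nonclassical cells Il1rn was between 6.18 and 8.06 CPM in the 4 libraries. Tnf was counted 3 to 58 times per library in classical cells and 12 to 41 times in nonclassical cells and passed no filter.

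Nfkbia had ratios of opposite sign in the strains, with no overlap of aliquots between ages in classical cells of either strain; it was not alone in this, since Tlr2 and Icam1, and Tnf on few UMIs, also had opposite signs there, but with overlapping aliquots. In classical cells of BL/6 the aliquots had 165, 178 and 178 CPM at 12 months and 217, 235 and 236 CPM at 20 months, all 20-month values being higher (log2 ratio 0.40, 0.24 to 0.56). In SM/J they had 395, 416 and 493 CPM at 12 months and 300, 307 and 323 CPM at 20 months, all 20-month values being lower (log2 ratio -0.48, -0.72 to -0.25). Both differences are smaller than 1.5-fold, and the difference between the strains was not tested. With classes set by marker UMIs the BL/6 ratio was 0.11, and at resolution 0.5, with 9 cells at 12 months, the SM/J ratio was -0.02. In nonclassical cells of BL/6 the ratio was 0.15 (0.00 to 0.31). Nonclassical cells of SM/J gave -0.62 (-0.80 to -0.44), just past 1.5-fold, and -0.57 after thinning. The ratio was -0.83 with every cell that had a Prg4 UMI left out and -0.82 without 1 of the 20-month aliquots. The aliquots of SM/J there, 359, 389 and 421 CPM and then 222, 222 and 346 CPM, did not overlap, although 1 of the 20-month aliquots was close to the 12-month ones. B cell-like cells, with the same signs, had 102 and 128 CPM of Nfkbia in BL/6 (log2 ratio 0.33, 0.17 to 0.49) and 165 and 104 CPM in SM/J (-0.66, -0.77 to -0.55). T cell-like cells, whose SM/J interval held 0, had 204 and 329 CPM in BL/6 (0.69, 0.53 to 0.85) and 232 and 248 CPM in SM/J (0.09, -0.14 to 0.32). NK cell-like cells had 183 and 516 CPM in BL/6 (1.49, 1.11 to 1.87) and, on 25 and 37 UMIs, 147 and 189 CPM in SM/J (0.36, -0.41 to 1.15), so the opposite signs were not shared by all classes. The 10 immediate early genes, which respond to handling as well as to stimulation, summed in classical cells to 4380 and 4689 CPM in BL/6 and to 4955 and 4956 CPM in SM/J, and in nonclassical cells to 4208 and 3885 CPM and to 3699 and 4076 CPM. The part of these genes in the Nfkbia differences was not tested.

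Nlrp3, the inflammasome sensor, was at 84.1 and 109 CPM in classical cells of BL/6 (log2 ratio 0.37, 0.14 to 0.61) and at 136 and 144 CPM in SM/J (0.09, -0.30 to 0.47). In nonclassical cells it was at 76.4 and 81.1 CPM in BL/6 and at 99.0 and 109 CPM in SM/J, with intervals that held 0 in both strains. Icam1, the ligand of leukocyte integrins, was at 35.9 and 50.3 CPM in classical cells of BL/6 (0.47, 0.12 to 0.84), with overlapping aliquots. It was at 61.6 and 47.7 CPM in classical cells of SM/J and at 30.5 and 27.1 CPM and 48.7 and 41.2 CPM in nonclassical cells of BL/6 and SM/J. No age difference of Nlrp3 or Icam1 in the 2 monocyte classes reached 1.5-fold at the settings used, though thinning gave 0.62 for Nlrp3 in classical cells of BL/6 and resolution 0.5 gave -1.67 for Icam1 in classical cells of SM/J.

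**Figure D3:**
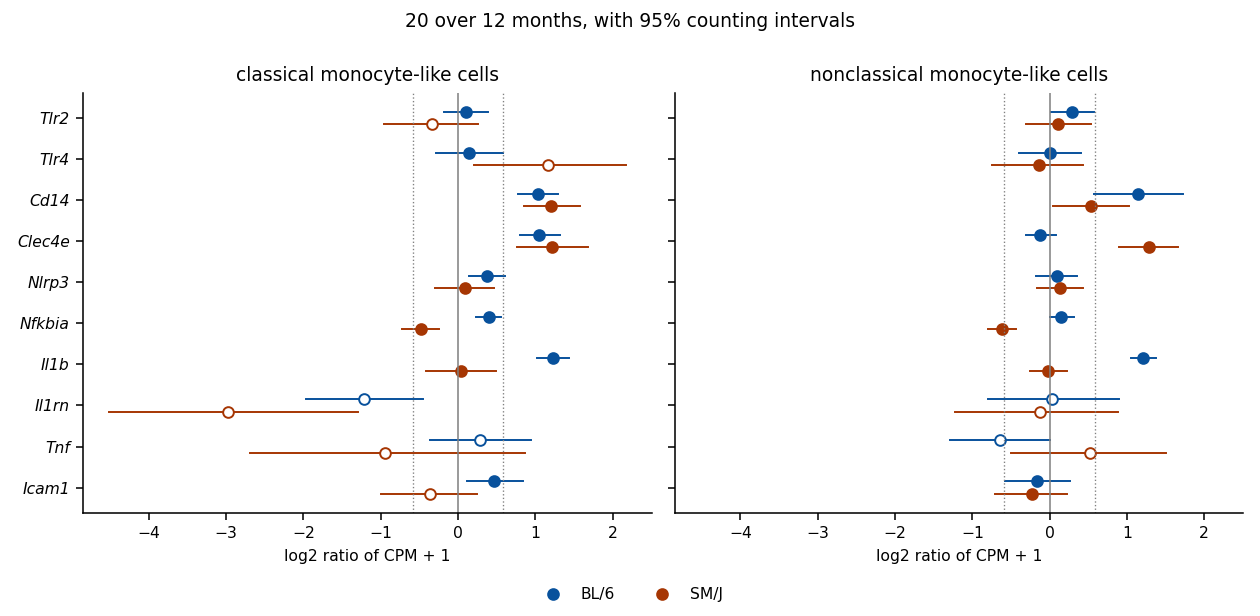
Log2 ratio of 20 over 12 months (CPM + 1) for each gene in BL/6 and SM/J, classical cells at left and nonclassical cells at right, with 95% counting intervals; open symbols did not pass the filter and dotted lines mark 1.5-fold. In classical cells Cd14 (1.04 and 1.21) and Clec4e (1.05 and 1.22) are to the right in both strains, Il1b is to the right in BL/6 (1.23) and near 0 in SM/J (0.04), and Nfkbia is on opposite sides of 0.

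Counted over the list, 8 of the 10 genes passed the filter in classical cells of BL/6 and 3 of these (Il1b, Cd14, Clec4e) were past 1.5-fold higher at 20 months, against 3.23% of the 5701 genes tested; none was lower, against 3.79%. In classical cells of SM/J 5 passed and 2 (Cd14, Clec4e) were higher, against 3.76% of 2949 genes, with none lower against 6.27%. In nonclassical cells of BL/6 8 passed and 2 (Il1b, Cd14) were higher, against 3.7% of 5645 genes, with none lower against 3.83%. Cd14, at 12.4 CPM at 12 months there, reached the mean of 20 CPM only through its 20-month level of 28.4 CPM. In nonclassical cells of SM/J 8 passed, 1 (Clec4e) was higher, against 1.82% of 5507 genes, and 1 (Nfkbia) was lower, against 3.29%. The median log2 ratio over all 10 genes was 0.39 and -0.15 in classical cells of BL/6 and SM/J and 0.06 and 0.05 in nonclassical cells, beside 0.02, 0.01, 0.03 and -0.02 over all genes tested. Over the members that passed the filter alone it was 0.44, 0.09, 0.12 and 0.05, so the sign in classical cells of SM/J depends on the 5 members that did not pass. The calls came from 4 genes, Il1b, Cd14, Clec4e and Nfkbia. Over the alternatives the number called in either direction ranged from 1 to 4 and from 0 to 3 in classical cells of BL/6 and SM/J, and from 1 to 3 and from 0 to 3 in nonclassical cells. No library has a replicate, so none of these counts carries a test.

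Between strains, SM/J classical cells had more Nfkbia, Nlrp3, Cd14 and Icam1 than BL/6 at 12 months. The log2 ratios of SM/J over BL/6 were 1.33 (1.13 to 1.53) for Nfkbia, 0.69 (0.35 to 1.02) for Nlrp3, 0.81 (0.43 to 1.20) for Cd14 and 0.76 (0.25 to 1.26) for Icam1, and aliquots of the strains did not overlap for any of them. These are 4 of 7 genes that passed, against 10.9% of 4648 genes higher in SM/J, and none of the 7 was lower, against 6.88%. At 20 months Cd14 was still higher (0.99, 0.75 to 1.22) and Il1b was lower in SM/J (-1.09, -1.43 to -0.77), 1 gene in each direction of 8 that passed, against 10.4% and 7.02% of 5680 genes. In nonclassical cells at 12 months Cd14 (1.20), Nfkbia (0.81) and Icam1 (0.66) were higher and Clec4e (-1.93) lower in SM/J, with overlapping aliquots for Icam1 at both ages, against 10.6% and 6.05% of 5785 genes. Cd14, at 12.4 CPM in BL/6 there, reached the mean of 20 CPM only through its SM/J level of 29.7 CPM. At 20 months Cd14 (0.60) and Icam1 (0.59) were higher and Il1b (-1.24, -1.46 to -1.03) and Tlr2 (-0.59, -0.98 to -0.22) lower, against 7.44% and 5.84% of 5722 genes. Over the alternatives the number called ranged from 1 to 6 and from 0 to 7 at 12 and 20 months in classical cells, and from 0 to 5 and from 1 to 5 in nonclassical cells. Il1b did not differ between the strains at 12 months beyond counting error in classical (0.09, -0.28 to 0.45) or nonclassical cells (-0.20 to 0.19).

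Strain ratios depended on the scaling more than age ratios did. TMM scaling, which assumes that most genes are equal, moved the median of all genes by -0.10 to -0.17 in the strain comparisons and by at most 0.04 in size in the age comparisons. It changed the share of calls that were higher in SM/J from 61.2% to 32.5% in classical cells at 12 months and from 59.6% to 31.9% at 20 months, and from 63.7% to 40.1% and from 56.1% to 39.1% in nonclassical cells. Under TMM the ratios of Nlrp3 in classical cells at 12 months (0.52), of Icam1 in nonclassical cells (0.51 and 0.49) and of Cd14 in nonclassical cells at 20 months (0.50) were no longer past 1.5-fold, while those of Nfkbia at 12 months (1.16 and 0.65) and of Il1b at 20 months (-1.26 and -1.34) were. The classical Il1b ratio at 20 months was smaller at resolution 0.5 (-0.66), with classes set by marker UMIs (-0.68) and after thinning (-0.58). When the classes were set by marker UMIs in place of clusters, the 12-month classical ratios were 0.53 for Nfkbia, -0.04 for Nlrp3 and 0.26 for Icam1. In nonclassical cells thinned to 1000 UMIs, Nfkbia and Cd14 at 12 months gave 0.49 and 0.20. Nonclassical Nfkbia at 20 months gave -0.19 with every cell that had a Prg4 UMI left out and -0.16 without 1 SM/J aliquot. The 20-month values of Tlr2, Cd14 and Icam1 in nonclassical cells lie at the 1.5-fold line, although Cd14 gave 2.12 at resolution 0.5. Its classical strain ratios at that resolution, on 9 and 27 SM/J cells, were 1.58 and 1.75. Reads of SM/J may also map less well to a reference of another strain, which was not tested.

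**Figure D4:**
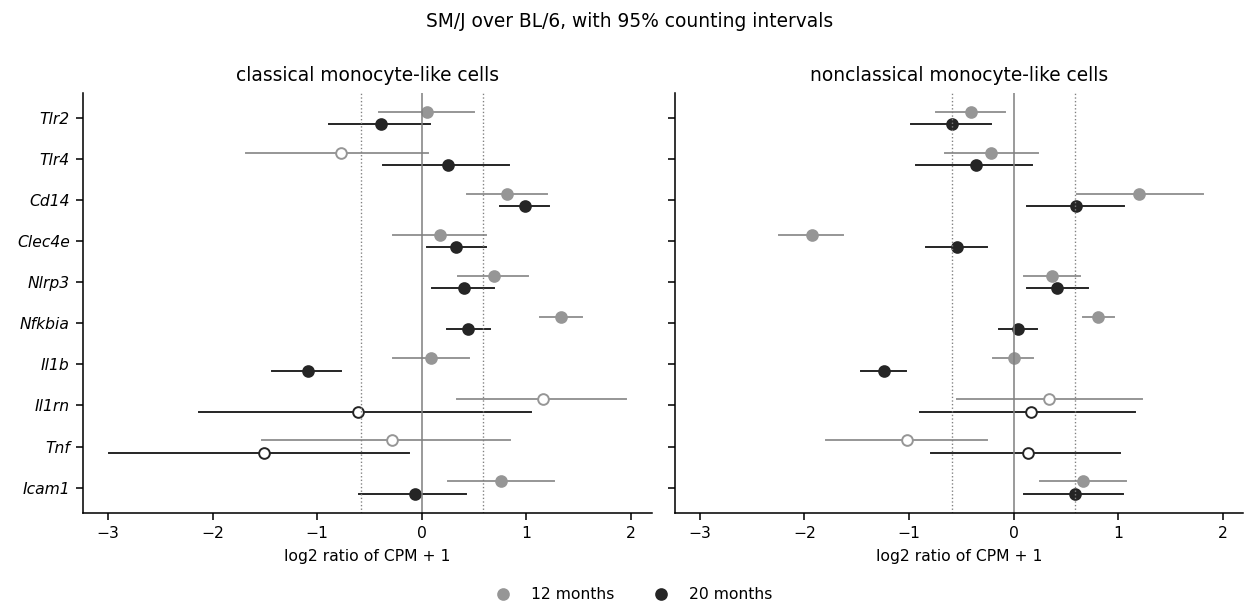
Log2 ratio of SM/J over BL/6 (CPM + 1) for each gene at 12 and 20 months, in classical (left) and nonclassical cells (right), with 95% counting intervals; open symbols did not pass the filter and dotted lines mark 1.5-fold. Il1b is near 0 at 12 months and at -1.09 and -1.24 at 20 months, and Nfkbia lies farther to the right at 12 months (1.33 and 0.81) than at 20 months (0.44 and 0.04).

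Partners of the 10 genes were read from 8 lists in the age comparisons. Their counts stand beside a background of all genes tested of 3.23% higher and 3.79% lower in classical cells of BL/6, 3.76% and 6.27% in classical cells of SM/J, 3.7% and 3.83% in nonclassical cells of BL/6, and 1.82% and 3.29% in nonclassical cells of SM/J. With 0 to 3 genes called per list and comparison, most lists hold too few calls to be set apart from these shares. Of 22 TLR receptors and adaptors, 12 passed the filter for the age comparison in classical cells of BL/6 and 6 in SM/J, and only Tlr7, an endosomal receptor for single-stranded RNA, was past 1.5-fold, in SM/J (131 and 76.6 CPM, log2 ratio -0.77). In nonclassical cells 13 passed in each strain and only Ly96, which encodes the MD-2 partner of TLR4, was past it, in BL/6 (42.8 and 26.5 CPM, -0.67). Of 19 NF-kB subunits and feedback inhibitors, 17 passed in classical cells of BL/6 with 0 past 1.5-fold, and 8 in SM/J with 1 lower, the c-Rel gene Rel (522 and 279 CPM, -0.90, -1.14 to -0.67). In nonclassical cells, where 18 passed in BL/6 and 17 in SM/J, Bcl3, a nuclear IkB-family gene, was higher in both strains (0.91 in BL/6 and 0.95 in SM/J). There Tnip1 was lower in BL/6 (-0.60), and Nfkbie was lower (-0.71) and Rela higher (0.62) in SM/J.

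Of 11 inflammasome genes, all passed in classical cells of BL/6 and 2 were lower with age, Nlrp1b (89.8 and 55.5 CPM, -0.68) and Casp4 (90.2 and 58.6 CPM, -0.61); Nlrp1b has near-identical neighbours, so its count is uncertain. In classical cells of SM/J 5 passed and 1, Txnip, was lower (-0.84). In nonclassical cells 9 passed in each strain, and Pycard, the ASC adaptor gene, was lower in BL/6 (152 and 94.6 CPM, -0.68), while Casp1, the protease gene (66.8 and 37.2 CPM, -0.83), and P2rx7 (-0.63) were lower in SM/J. Of 15 receptors and cytokines of the IL-1 and TNF families and their relatives, 7 or 8 passed per comparison and 1 was past 1.5-fold, Il10ra in classical cells of SM/J (-0.60). Among C-type lectins and their partners, Clec4d, which encodes the receptor that pairs with Mincle, was higher in classical cells of BL/6 (35.5 and 62.3 CPM, 0.79, 0.45 to 1.15) and lower in nonclassical cells (27.8 and 16.9 CPM, -0.68). Malt1, of the CARD9 signalling complex, was lower in both classes of BL/6 (-0.72 and -0.67), and none was past 1.5-fold in SM/J, where 7 of the 10 found passed the filter in classical and 6 in nonclassical cells. Of 10 adhesion genes 7 passed each time, and only Pecam1 was past it, in nonclassical cells of BL/6 (0.79).

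Immediate early genes were mostly level. Ier3 was higher in classical cells of BL/6 (11.0 and 54.9 CPM, log2 ratio 2.22, 1.68 to 2.79) and Fosb in nonclassical cells of SM/J (23.2 and 56.6 CPM, 1.25), out of 8 or 9 genes that passed each time. Ier3 reached the mean of 20 CPM only through its 20-month level. Zfp36 is on this list and on the NF-kB list. Of 8 interferon genes 3 passed in classical cells, Isg15, Oasl2 and Irf7. All 3 were lower at 20 months both in BL/6 (-2.43, -1.89 and -1.44, against 3.79% of all genes lower) and SM/J (-1.75, -2.20 and -1.90, against 6.27%), and Irf7 was lower in nonclassical cells too (-0.74 and -0.94).

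Cavity-type macrophages, a rare class in 3 libraries and 14.8% of the kept cells of SM/J at 20 months, combined high Cd14 with little Il1b. The Prg4 threshold is not a narrow one for these cells: 2 cells had exactly 5 Prg4 UMIs and 2 had 4. In SM/J at 20 months Cd14 was at 545 CPM (aliquots 481 to 578), against 249 CPM in classical cells (log2 ratio 1.13, 0.92 to 1.34) and 43.7 CPM in nonclassical cells (3.61, 3.23 to 4.02). A Cd14 UMI was present in 393 of the 397 cells. Tlr4 was at 71.1 CPM against 35.2 and 25.9 CPM (1.00 and 1.42), and Nfkbia at 582 CPM against 311 and 255 CPM (0.90 and 1.18). Il1b was at 14.6 CPM against 103 and 158 CPM, log2 ratios of -2.74 (-3.17 to -2.30) and -3.35 (-3.72 to -3.00). Its 85 UMIs came from 37 cells, 15 of them from 1 cell, and the aliquots had 10.0 to 25.1 CPM; with cells thinned to 1000 UMIs the level was 7.56 CPM. Nlrp3 (-1.10 and -0.70) and Tlr2 (-0.59 and -0.69) were lower as well. Clec4e was lower than in classical cells (-0.77, -1.05 to -0.49) and not distinguishable from nonclassical cells (0.03, -0.26 to 0.34). In the other libraries, with 29 to 38 such cells, Cd14 was at 278 to 465 CPM and Il1b at 10.1 to 51.1 CPM, in each case with Cd14 above and Il1b below both monocyte classes of the library. Not every other contrast held there. Tlr4 aliquots of BL/6 lay above both monocyte classes, but the Nfkbia aliquot range of each library held both monocyte levels. At 12 months Clec4e aliquots lay above classical cells (109 to 142 against 60.8 CPM in BL/6, 118 to 171 against 68.6 CPM in SM/J). Tlr2 aliquots of SM/J, 67.0 to 88.3 CPM, lay above both classes. These cells had a median of 12944 to 16083 UMIs, more than the monocytes, and whether some hold a second cell was not tested beyond the doublet calls.

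Among lymphocytes, Icam1 differed with age in the SM/J B cell-like cells, at 12.8 and 27.5 CPM (log2 ratio 1.05, 0.74 to 1.37). That class differed widely between the ages: its median depth was 4203 and 9621.5 UMIs, and log2 ratios of all genes tested there ran from -0.94 to 0.87 between the 5th and 95th percentiles, against -0.28 to 0.38 in BL/6. The part of this in the Icam1 and Nfkbia ratios of B cell-like cells was not tested. The B cell-like cells of BL/6 had 14.4 and 15.0 CPM. In T cell-like cells it was at 22.6 and 40.0 CPM in SM/J, on 39 and 40 UMIs that did not pass the filter, and at 48.3 and 41.9 CPM in BL/6 (-0.20, -0.56 to 0.16).

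The genes most like each member were found over 20 points, the B, T and NK cell-like, classical and nonclassical classes in the 4 libraries, by Pearson correlation of log2(CPM + 1); points share libraries, and the values describe these points only. Nlrp3 was closest to Ptpro (0.995), Tnfrsf21 (0.989) and Gpr141 (0.988). Il1b was closest to Cebpb (0.987), the gene of a myeloid transcription factor, Csf1r (0.984), the receptor gene that marks monocytes and macrophages, and Pilrb1 (0.981). Clec4e was closest to Nav1 (0.981), Abcd2 (0.981) and Cebpb (0.979). Cd14 was closest to Chil3 (0.968), Msr1 (0.967) and Cebpd (0.954), and Tlr2 to Ltbr (0.969), Cd68 (0.968) and Psap (0.964). Tlr4 was closest to Crlf2 (0.950) and Il1rn to Adap2 (0.949). Nfkbia, Tnf and Icam1, which lymphocytes also carry, had no gene above 0.792, 0.732 and 0.848.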

How the data were processed

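Single-cell 3' RNA counts of mouse blood mononuclear cells were deposited as 4 matrices of raw UMI counts, which Cell Ranger 7.0.1 wrote, per the file headers; mm10 and Seurat 4.3.0 are named in the submitters' processing notes. The 10 genes and all lists were chosen with earlier results of these data known. Cells needed 500 UMIs and 200 genes, with a mitochondrial share no higher than 10%, and Scrublet (scanpy 1.11.5, expected rate 0.06) marked 125 doublets, which were removed. Cells were clustered without the 10 genes (2000 variable genes within libraries, 30 principal components, 15 neighbours, Leiden resolution 1) into 26 clusters, which were named by marker lists; cells with at least 5 Prg4 UMIs formed the cavity-type class. UMIs were summed per class and library and scaled by the class total to CPM. Ratios are log2 of CPM + 1 with exact binomial 95% intervals, levels have Poisson intervals, and shares of cells Clopper-Pearson intervals. A gene was called past 1.5-fold (0.58 on the log2 scale) with at least 100 UMIs in the comparison and a mean of 20 CPM. Each strain and age has 1 library, so no test between groups was possible and no p-value is given. All 10 genes are named, and of each pathway list up to 3 genes with the largest called ratio per class and strain, and for likeness the 3 highest correlations. The calling step was tested on simulated data. TMM factors came from edgeR 4.0.16. Promoter windows were matched by symbol in RefSeq tables of GRCm38.p6.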

Additional observations from a re-analysis of the deposited data

Results flagged for a closer look

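Nfkbia in classical monocyte-like cells had a log2 ratio of 20 over 12 months of 0.40 in BL/6 and of -0.48 in SM/J. It was singled out because every one of the 9 pairs of a 20-month with a 12-month aliquot was above 0 in BL/6 and below 0 in SM/J. The BL/6 ratio was 0.11 with classes set by marker UMIs and the SM/J ratio -0.02 at resolution 0.5. The difference between the strains was not tested, since each strain and age has 1 library, and the strains were also different 10x runs.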

How the results depend on the processing

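Alternatives were 17 processing settings and the omission of each of 12 aliquots in turn; leaving out the mixed cluster 23 and leaving out shared barcodes were chosen after seeing the data. Of 2240 log2 ratios of single genes, 2159 stayed within their counting interval, 72 left it and 9 that were past 1.5-fold changed sign. The median over the 10 genes moved by more than the spread over aliquots in 10 of 224 cases, some of which also changed sign, and in 1 further case changed sign from a value larger than that spread. Resolution 0.5 left 9 SM/J classical cells at 12 months and 27 at 20 months. With it the age ratios in SM/J were 4.02 for Tnf and -1.22 for Clec4e, the strain ratio of Il1rn at 12 months -3.39 and that of Tnf at 20 months 0.33, and the strain medians 0.19 and -0.52. Marker gates gave classical medians of 0.19 (age, BL/6), 0.48 (age, SM/J) and -0.07 (strain, 12 months), a Tnf age ratio of 0.62 in SM/J, and strain ratios of -0.04 for Nlrp3 at 12 months and 0.03 for Il1rn and 0.01 for Tnf at 20 months. Thinning to 1000 UMIs gave medians of 0.62 (age, BL/6), 0.86 and -0.49 (strain, 12 and 20 months) in classical cells and -0.35 (age, SM/J) and -0.20 (strain, 20 months) in nonclassical cells, and 0.77 for Tnf with age in BL/6 nonclassical cells. TMM gave 0.02 for the nonclassical strain median at 12 months. Nfkbia with age in classical cells was 0.11 in BL/6 under marker gates and -0.02 in SM/J at resolution 0.5. Of 20 cavity-type levels 5 left their counting interval, all after thinning. The cause was not tested in these cases. The share of all genes past 1.5-fold was 28.9%, 40.0% and 30.7% at resolution 0.5 in the classical SM/J age, 12-month and 20-month strain comparisons, and 8.76% with a filter of 50 UMIs and 10 CPM in the nonclassical SM/J age comparison. The number of the 10 genes past 1.5-fold was within 1.5 times its reported value in 206 of 232 cases; the lowest counts came mostly with thinning, where fewer genes have the UMIs to pass the filter. No paired analysis was possible because each strain and age has 1 library and tags are not shared between libraries. Depth limits Il1rn, Tnf and, in SM/J classical cells, Tlr2, Tlr4 and Icam1.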
